A study of Rattus norvegicus with 4 samples.

Results

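The Nr4a orphan nuclear receptors were followed in rat aortic smooth muscle cells given PDGF-BB, the BB dimer of platelet-derived growth factor and a strong mitogen of smooth muscle, or its vehicle. All probe sets annotated to exactly 1 gene symbol, that symbol being Nr4a1, Nr4a2 or Nr4a3, were taken. This gave 3 of 12922 genes and 5 of the 23707 probe sets tested, 1 for Nr4a1, 2 for Nr4a2 and 2 for Nr4a3. Per the labels, both groups were cells plated at 10000 per cm2 for 24 h in 10% fetal bovine serum and then held for 72 h without serum and insulin. The PDGF-BB group received 30 ng/mL of PDGF-BB for 3 h and the vehicle group 10 mM acetic acid with 0.2% bovine serum albumin for the same time, with 2 Affymetrix arrays each. The aim of the study was to identify genes that respond early when these cells leave the contractile state, a process called phenotypic modulation. The labels give neither the strain or age of the rats nor the passage of the cells, and do not say whether replicate arrays stem from different cultures. The p-values then rest on the spread between these arrays, which may be technical.

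Nr4a1 (Nur77, NGFI-B), Nr4a2 (Nurr1) and Nr4a3 (NOR1) are transcription factors of the nuclear receptor superfamily with no established physiological ligand. Their activity is set largely by how much of them is made, and their genes are known as immediate early genes, transcribed within minutes of growth factor, cyclic AMP, calcium or stress signals without new protein synthesis. They bind as monomers to the NGFI-B response element and, for Nr4a1 and Nr4a2, as heterodimers with the retinoid X receptors, and in vascular smooth muscle they have been studied as regulators of proliferation.

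Promoter sequence is shown first because cyclic AMP response element-like and AP-1-like elements near the start are the textbook route by which growth signals reach Nr4a1. RefSeq (build GRCr8) gave a promoter window for 2 of the 3 genes, Nr4a1 and Nr4a2. The 250 bases before the listed start of Nr4a1 (chr7:134259888-134260137, + strand) and of Nr4a2 (chr3:62104888-62105137, - strand) read, 5′ to 3′, with TGCGTCA in capitals in Nr4a1 and TGACG, the reverse complement of CGTCA, in capitals in Nr4a2:
Nr4a1: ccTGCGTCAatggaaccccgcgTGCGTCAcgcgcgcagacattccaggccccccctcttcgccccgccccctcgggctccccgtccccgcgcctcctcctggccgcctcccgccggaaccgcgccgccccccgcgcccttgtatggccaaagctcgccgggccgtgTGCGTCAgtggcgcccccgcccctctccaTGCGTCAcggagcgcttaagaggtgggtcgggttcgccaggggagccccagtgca
Nr4a2: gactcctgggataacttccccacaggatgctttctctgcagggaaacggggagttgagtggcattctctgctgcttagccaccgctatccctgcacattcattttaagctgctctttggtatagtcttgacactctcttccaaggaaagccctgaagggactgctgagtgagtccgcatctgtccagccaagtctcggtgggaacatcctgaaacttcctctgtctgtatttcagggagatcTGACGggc

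The Nr4a1 window held TGCGTCA 4 times, all on the strand of the gene, with first bases 248, 228, 84 and 55 bases before the start. This 7-letter word was picked after the sequence had been read. On either strand it stood at least once in 556 of 33469 RefSeq windows of this length (1.66%). It stood 4 or more times in 1 of them, the Nr4a1 window from which it was picked. TGCGTCA contains CGTCA, the core shared by cyclic AMP response elements. On either strand CGTCA was in 18.2% of windows, 4 times in Nr4a1 (the same 4 places) and 1 time in Nr4a2. Only exact words were counted, on both strands. The full cyclic AMP response element TGACGTCA (1.59% of windows), the AP-1 element TGACTCA (4.05%) and the NGFI-B response element AAAGGTCA (1.24%) were found in neither window. Nor was the serum response factor element called the CArG box (CCWWWWWWGG with W for A or T, 1.5%). Near matches were not searched for, and TGCGTCA itself shares TG at its start and TCA at its end with TGACTCA. The Sp1 element GGGCGG (30.5% of windows) was in Nr4a1 3 times and not in Nr4a2, and 74.8% of the Nr4a1 bases were G or C against 52% in Nr4a2. The listed starts lie inside the span of both genes, so other starts exist whose windows were not used here. Whether the windows shown are the promoters used in smooth muscle cells was not tested.

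Levels are probe set intensities in linear units as deposited, and a change is the difference between groups of log2(intensity + 16), with its standard error (SE) from limma. The median intensity was 132 to 148 on the 4 arrays. The table has no detection calls, so the brightest of 27 Bacillus control probe sets, 80.3, served as a rough yardstick of background, and 41.0% to 41.8% of probe sets on an array lay at or below it. As a check of the cell type, 10 of 10 smooth muscle markers stood above the yardstick in both groups. With PDGF-BB 4 of the 10 were lower (40% against 15.2% of all genes), 0 were higher (against 12.4%) and 6 did not pass. With vehicle replicate 1 or 2 or PDGF-BB replicate 2 left out, 1 of them was called, and 2 with an offset of 1. Among the markers of other cells, 1 of 6 endothelial and 1 of 7 leukocyte genes were above the yardstick with vehicle. So were 2 of 4 adventitial fibroblast and 1 of 4 nerve and glia genes. Where 15.2% of all genes were lower and 12.4% higher, 1 of these 21 changed, the endothelial adhesion gene Esam (-0.47, SE 0.09, limma adjusted p 0.0249). Esam lost that call in each of the 4 fits without 1 array (limma adjusted p 0.0552 to 0.178) and with the replicate number as a block (0.0604). In the other marker lists, 1 fibroblast gene was called in 4 alternatives and 1 leukocyte gene after quantile scaling. Summed endothelial marker levels were 344 to 355 with vehicle and 269 to 278 with PDGF-BB, and leukocyte levels, mostly Cd14, 1563 to 1620 and 1318 to 1432. Fibroblast markers summed to 295 to 312 and 248 to 293, and nerve and glia markers to 127 to 160 and 142 to 147. The part of these cells in the results was not tested. Fewer cells of a type and less RNA per cell cannot be told apart in such RNA.

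All 3 genes were higher with PDGF-BB in at least 1 probe set, by very different amounts. In its brightest probe set, Nr4a3 rose 41.8-fold in linear intensity, Nr4a1 7.04-fold and Nr4a2 2.42-fold. At an adjusted p under 0.05, 4 of the 5 probe sets rose and 0 fell, where 11.4% of all probe sets rose. The same 4 had both PDGF-BB arrays above both vehicle arrays, a separation seen in 29.2% of all probe sets. The probe set that did not pass, the second of Nr4a3, did not separate the groups.

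**Figure D1:**
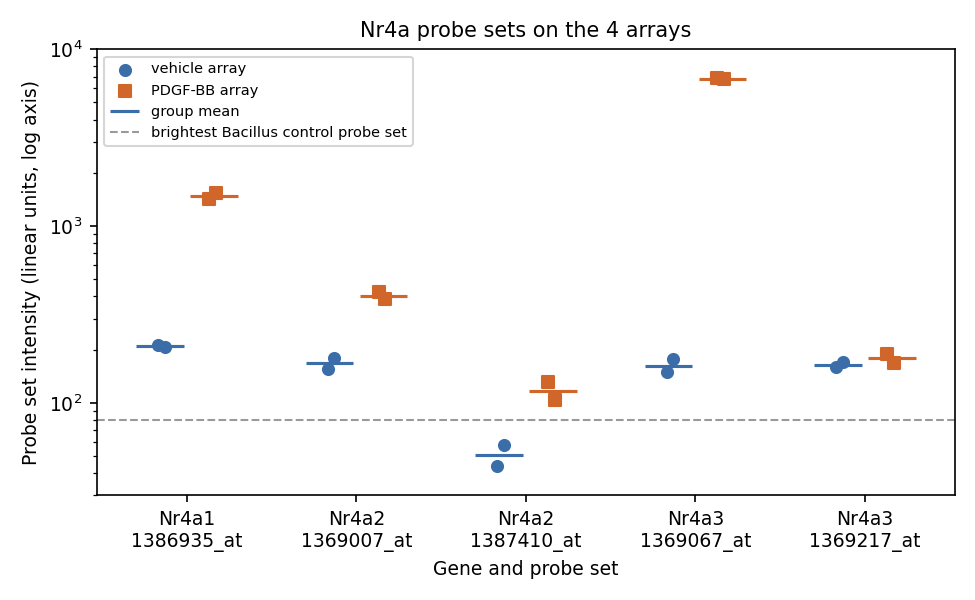
Intensity of the 5 Nr4a probe sets (linear units, log axis) on the 2 vehicle arrays (circles) and the 2 PDGF-BB arrays (squares), with group means as bars; the dashed line is the brightest Bacillus control probe set, 80.3. The PDGF-BB arrays stand above the vehicle arrays in the first 4 probe sets and overlap them in the last, Nr4a3 1369217_at.

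Nr4a3, which encodes NOR1 and is a known early target of growth factors in smooth muscle, was read by probe set 1369067_at at 148.7 and 176.6 on the vehicle arrays and at 6860 and 6745 on the PDGF-BB arrays. Both vehicle arrays were low and both PDGF-BB arrays high, with a wide gap between the groups. The mean went from 163 ± 19.7 to 6803 ± 81.0 (SD, n = 2), a 41.8-fold difference, and the log2 change was 5.26 (SE 0.11, 95% interval 4.95 to 5.56, limma adjusted p 0.000433). Over the 4 pairings of a PDGF-BB with a vehicle array the change ran from 5.13 to 5.38. By size of increase it ranked 9 of 23707 probe sets and 7 of 12922 genes. Among 1389 probe sets whose vehicle level lay within 0.25 log2 units of it, 0 rose more.

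The second Nr4a3 probe set, 1369217_at, gave another picture. It read 159.8 and 169.6 with vehicle and 189.0 and 168.5 with PDGF-BB, so that the lower PDGF-BB array lay between the vehicle arrays. The log2 change was 0.11 (SE 0.10, 95% interval -0.17 to 0.38, limma adjusted p 0.516). The vehicle levels of the 2 probe sets were alike in size, and the difference between their changes was 5.15 log2 units, from 5.01 to 5.29 over the 4 array pairings. The platform annotation pairs 1369067_at with the RefSeq transcript of Nr4a3 and lists no accession for 1369217_at. Which stretch of the transcript each one reads was not analysed here. Of 3256 genes with several probe sets, 12 had a called increase of at least 16-fold in some probe set, and in 3 of these (Nr4a3, Il1rl1 and Plaur) another probe set was not called. In 1 of the 12, Nr4a3, the uncalled probe set moved by less than 0.25 log2 units. That of Plaur lay just outside this cut at 0.253, and that of Il1rl1 moved by 0.38. Both of these stood under the yardstick with vehicle, at 42.6 and 72.6. At increases of at least 2-fold, 91 of 245 such genes had an uncalled probe set and 54 had one that moved by less than 0.25. These counts were made after the Nr4a3 values had been seen.

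Nr4a1, which encodes Nur77, has a single probe set, 1386935_at. It stood at 213.0 and 208.1 on the vehicle arrays and at 1429 and 1534 on the PDGF-BB arrays. The vehicle pair was tight and the PDGF-BB pair lay far above it. Means were 211 ± 3.47 and 1481 ± 74.7 (SD, n = 2), a 7.04-fold difference, with a log2 change of 2.72 (SE 0.09, 95% interval 2.48 to 2.97, limma adjusted p 0.000705). It ranked 90 among the 12922 genes by size of increase, and 10 of 1423 probe sets of like vehicle level rose more.

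Nr4a2, which encodes Nurr1 and is best known for its role in dopamine neurons, rose least, ranking 449 of 12922 genes. Probe set 1369007_at read 156.3 and 178.3 with vehicle and 421.8 and 387.5 with PDGF-BB, with no overlap between the groups. Means were 167 ± 15.5 and 405 ± 24.2 (SD, n = 2), a 2.42-fold difference and a log2 change of 1.20 (SE 0.11, 95% interval 0.91 to 1.49, limma adjusted p 0.00487). The dimmer probe set 1387410_at read 44.0 and 57.6 with vehicle, under the background yardstick, and 130.6 and 103.7 with PDGF-BB, above it. Set against the yardstick in place of the vehicle mean, its PDGF-BB mean was at least 1.46-fold higher. Its log2 change was 1.0 (SE 0.16, limma adjusted p 0.0187), and the pair of Nr4a2 probe sets differed in change by 0.20 log2 units, from 0.06 to 0.35 over the array pairings. This gap depended on the offset. The brighter and the dimmer probe set changed by 1.27 and 1.19 with an offset of 1, and by 1.02 and 0.66 with 64. In linear intensity they rose 2.42-fold and 2.31-fold. The dimmer probe set lost its call whichever array was left out, with limma adjusted p-values of 0.102 and 0.0615 without vehicle replicate 1 or 2 and 0.0752 and 0.0591 without PDGF-BB replicate 1 or 2. The brighter one kept its call in these fits, with values of 0.0371 to 0.0482.

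The sizes of the 3 responses were compared within arrays, for the brightest probe set of each gene. The change of Nr4a3 exceeded that of Nr4a1 by 2.53 log2 units (2.34 to 2.73 over the 4 array pairings) and that of Nr4a2 by 4.06 (3.99 to 4.13), and Nr4a1 exceeded Nr4a2 by 1.52 (1.31 to 1.74). In each of the 3 pairs of genes the order held in 4 of 4 array pairings. With 2 arrays against 2, an exact two-sided permutation test cannot go below p = 0.33, the value all 3 pairs had before and after Benjamini-Hochberg adjustment. For Nr4a3 the order rests on probe set 1369067_at, since 1369217_at changed less than either other gene. The order was read at 3 h only and from different probe sets. The part of timing or of probe behaviour in it was not tested.

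**Figure D2:**
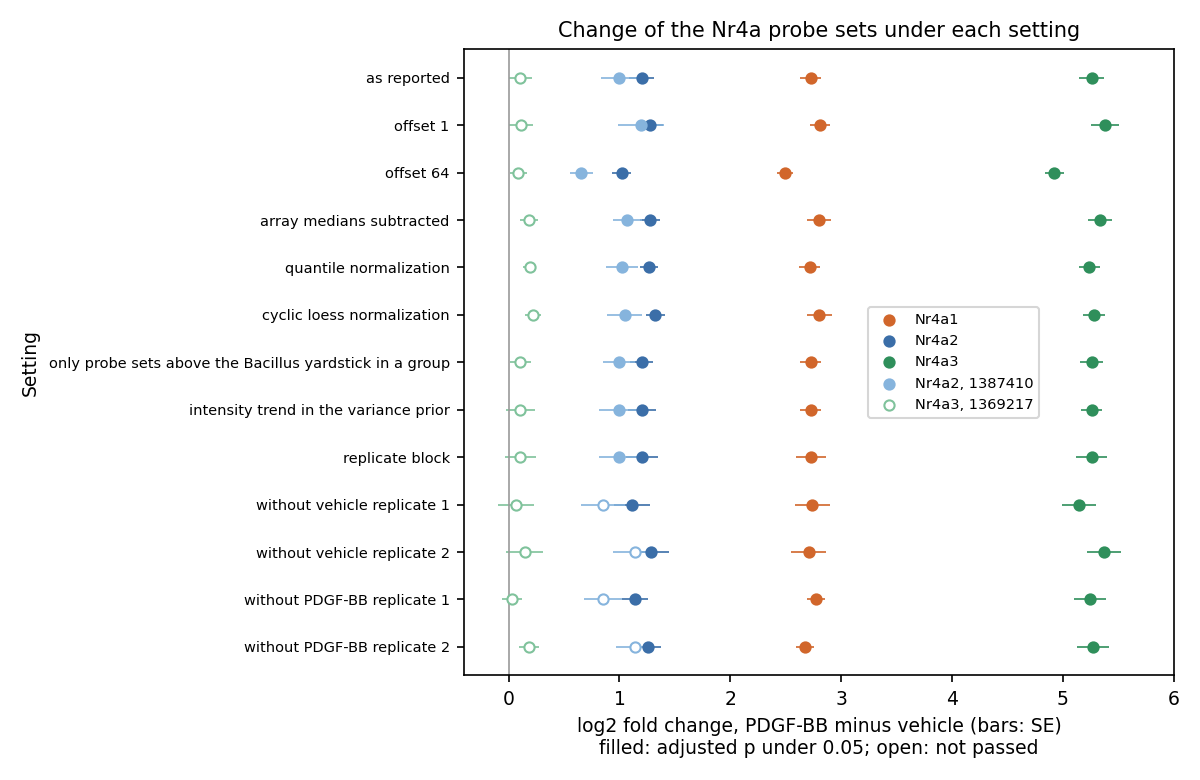
The log2 change of each Nr4a probe set (horizontal axis, with SE) as reported and under 12 alternative settings (vertical axis), filled where the limma adjusted p was under 0.05 and open where it was not. Nr4a3, Nr4a1 and the brighter Nr4a2 probe set are filled throughout, 1387410_at of Nr4a2 is open in the 4 settings that leave out an array, and 1369217_at of Nr4a3 is open in all.

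By profile over the 4 arrays (Euclidean distance between log2 values, each gene centred on its own mean), the 3 genes nearest to Nr4a3 were Dhrs9, a retinol dehydrogenase (distance 0.06 log2 units), Tcim (0.07) and Palldl1 (0.13). All 3 had vehicle means under the yardstick, so their nearness to Nr4a3 depends on the offset of 16. With an offset of 1 or 64 the log2 change was 5.67 or 4.37 for Dhrs9, 6.01 or 4.22 for Tcim and 6.87 or 3.64 for Palldl1, beside 5.38 or 4.92 for Nr4a3. Nearest to Nr4a1 were Nfil3, a basic leucine zipper repressor (0.07), Abtb2 (0.09) and Rasl11b (0.09), with changes of 2.71, 2.78 and 2.68; Abtb2, under the yardstick with vehicle, was at 3.17 or 2.06 with those offsets. Nearest to Nr4a2 were Utp15, a factor of ribosomal RNA processing (0.04), Serpine2, an inhibitor of serine proteases (0.04), and Tshz1 (0.05), with changes of 1.20, 1.23 and 1.16. The vehicle mean of Serpine2 was also under the yardstick. The measure rewards a like size of change and rests on 4 arrays.

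Among nuclear receptors, Nr4a3 and Nr4a1 had the largest increases of the 42 genes measured, 3 of the family and 39 others, and Nr4a2 ranked 5. Of the 39 others, 5 rose (12.8%), 10 fell (25.6%) and 24 did not pass, with a median log2 change of 0.04. Over all 12922 genes these shares were 12.4% higher and 15.2% lower, with a median of -0.03. Between Nr4a1 and Nr4a2 in size lay Ppard, a fatty acid-sensing receptor, and Rorb, a retinoid-related orphan receptor, though with an offset of 64 Rorb was at 0.91, under Nr4a2 at 1.02. Ppard went from 333 ± 5.21 to 909 ± 20.2 (SD, n = 2), a log2 change of 1.41 (SE 0.09, limma adjusted p 0.00211) in 1 of its 2 probe sets, and Rorb from 52.0, under the yardstick, to 154 (1.32, SE 0.09, limma adjusted p 0.00254). Both changes lay inside the 95% interval of Nr4a2, 0.91 to 1.49. At the other end Nr1d2, the heme-sensing clock repressor REV-ERB beta, fell by 1.81 (SE 0.13, limma adjusted p 0.00293), and Thrb, the thyroid hormone receptor beta, fell by 1.61 (SE 0.12, limma adjusted p 0.00335). Without vehicle replicate 1 or 2, 4 of the 39 were called in either direction, and 7 and 6 without PDGF-BB replicate 1 or 2, in place of 15; an offset of 1 gave 8.

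**Figure D3:**
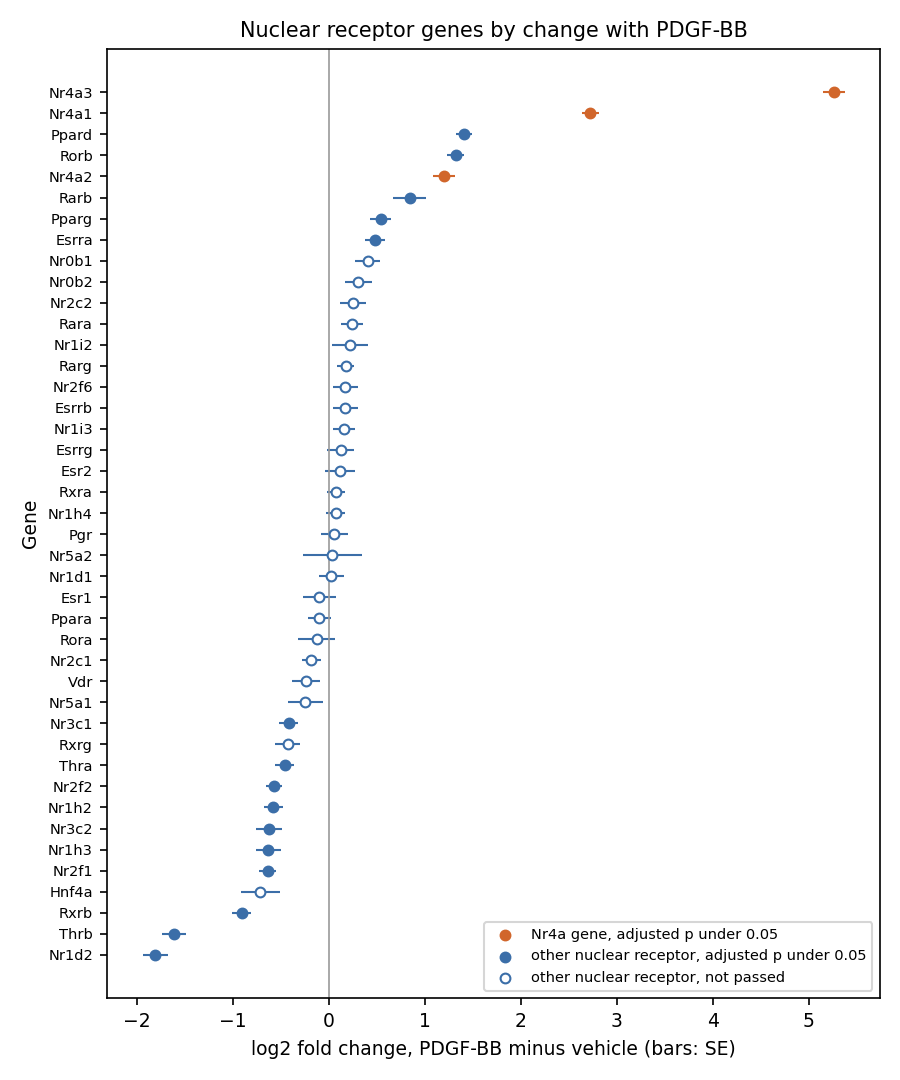
The log2 change with PDGF-BB (horizontal axis, with SE) of 42 nuclear receptor genes, ordered by size; Nr4a genes are orange, others blue, and filled points passed at an adjusted p under 0.05. Nr4a3 at 5.26 and Nr4a1 at 2.72 stand apart from the others, which run from -1.81 for Nr1d2 to 1.41 for Ppard.

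Among genes that act on Nr4a transcription, more were higher than lower. Of 28 measured, 10 rose, 2 fell and 16 did not pass (35.7% and 7.14%, against 12.4% and 15.2% of all genes), and the median log2 change was 0.29. Crem, which encodes activators and the inducible repressor ICER that act at cyclic AMP response elements, went from 876 ± 49.6 to 5004 ± 53.3 (SD, n = 2), a change of 2.49 (SE 0.09, limma adjusted p 0.000710) with all 4 of its probe sets called higher. Creb1, the constitutive activator at the same elements, was at 432 and 462 (0.09, SE 0.16, limma adjusted p 0.723), a value that turned to -0.03 when vehicle replicate 1 was left out and to -0.06 when PDGF-BB replicate 1 was. The MEF2 factors carry calcium signals to Nr4a1. Mef2a rose by 1.36 (SE 0.09, limma adjusted p 0.00228), from 1411 ± 34.6 to 3641 ± 42.5 (SD, n = 2). Mef2c rose by 1.34 (SE 0.19, limma adjusted p 0.0122) from 73.8, under the yardstick, and was not called without vehicle replicate 1 or 2 (0.0749 and 0.0747). Mef2d was at 497 and 630 (0.32, SE 0.14, limma adjusted p 0.168) and was called higher after cyclic loess (0.41, limma adjusted p 0.0436). Junb, an AP-1 subunit, rose by 3.48 (SE 0.08) and Nfkb1, the NF-kappaB precursor p105, by 1.40 (SE 0.09), with limma adjusted p-values of 0.000433 and 0.00237. Srf, the serum response factor, was at 1846 ± 156 and 1888 ± 108 (SD, n = 2), a change of 0.03 (SE 0.11) with a limma adjusted p of 0.860. The sign of the Srf change flipped under quantile scaling (-0.11) and when vehicle replicate 2 (-0.05) or PDGF-BB replicate 1 (-0.02) was left out. Without vehicle replicate 1 or 2, 5 of the 28 were called, against 12 with all arrays.

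Of the genes known to respond to CREB, most were higher with PDGF-BB. Of 19 measured, 17 rose, 0 fell and 2 did not pass (89.5% higher against 12.4% of all genes), with a median log2 change of 1.47. With vehicle 11 of the 19 had means above the yardstick, and with PDGF-BB 17. The median was that of Il6, which went from 23.1, under the yardstick, to 92.3. With an offset of 1 or 64, 17 were again called. Between 13 and 16 were called when 1 array was left out. Rgs2, which limits G-protein signalling, had the largest change at 4.93 (SE 0.10, limma adjusted p 0.000433), beside 5.26 for Nr4a3. Nfil3, the nearest profile to Nr4a1, went from 238 ± 5.54 to 1643 ± 25.5 (SD, n = 2). The members that did not pass were the clock gene Per1 (-0.18, SE 0.15) and the coactivator gene Ppargc1a (0.08, SE 0.11), both under the yardstick in both groups. Of the 16 list genes with a RefSeq promoter window, 5 held TGACGTCA (Areg, Crem, Dusp1, Il6 and Ppargc1a), 11 held CGTCA and 0 held TGCGTCA. Among 10684 tested genes with a window, 2.72%, 26.9% and 3.06% held these words. As the list was chosen for known response to CREB, this comparison describes it and tests nothing. The list shares Crem and Junb with the preceding list and Icam1 and Ppargc1a with the targets below, and it was chosen with earlier results of these data known.

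Genes for proteins that bind or modify the Nr4a receptors went both ways. Of 26 measured, 5 rose, 6 fell and 15 did not pass (19.2% and 23.1%, against 12.4% and 15.2% of all genes), with a median of -0.12. Some of the 26, such as the 3 retinoid X receptors, also stand among the other nuclear receptors, so the counts of these lists overlap. The targets below also share a gene with the other nuclear receptors. Of the 3 retinoid X receptors, heterodimer partners of Nr4a1 and Nr4a2, 0 were called higher. With 12.4% of all genes called higher, 3 genes are too few to read this count as a result. Rxrb was at 583.1 and 539.2 with vehicle and at 303.9 and 279.8 with PDGF-BB, with no overlap. It fell by 0.91 (SE 0.10, limma adjusted p 0.00720), a call lost without vehicle replicate 1 or 2 (0.0716 and 0.0573). Rxra was under the yardstick on all arrays, at 44.9 to 52.5, with a change of 0.08 (SE 0.10, limma adjusted p 0.622). Rxrg went from 86.7 to 60.1, under the yardstick (-0.43, SE 0.13, limma adjusted p 0.0855). Fhl2, a LIM-domain protein reported to bind and restrain Nur77 in smooth muscle, rose by 1.39 (SE 0.09, limma adjusted p 0.00226), from 1316 ± 38.8 to 3467 ± 63.9 (SD, n = 2), in both of its probe sets. Rps6ka3, the kinase RSK2 of a family that phosphorylates Nur77, rose by 1.13 (SE 0.14, limma adjusted p 0.00922), a call lost without vehicle replicate 1 (0.0640) or PDGF-BB replicate 1 (0.0514). Hif1a, the hypoxia-inducible factor subunit, rose by 0.62 (SE 0.09, limma adjusted p 0.0121), not called without vehicle replicate 1 or 2 (0.111 and 0.108). The list had 11 called genes with all arrays, 1 and 2 without vehicle replicate 1 or 2, and 7 and 5 without PDGF-BB replicate 1 or 2; an offset of 1 gave 4.

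Reported Nr4a target genes, drawn from several tissues, showed no common direction. Of 33 measured, 6 rose, 5 fell and 22 did not pass (18.2% and 15.2%, against 12.4% and 15.2% of all genes), with a median of 0.12. With vehicle 14 of the 33 had means above the yardstick, with PDGF-BB also 14, and 12 in both. Of the cell-cycle genes linked to Nr4a receptors in smooth muscle, cyclin D1 (Ccnd1) was at 1573 ± 85.3 and 2179 ± 103 (SD, n = 2), a change of 0.47 (SE 0.10, limma adjusted p 0.0342). Its call ended without each array (0.221 and 0.149 without vehicle replicate 1 or 2, 0.0880 and 0.0765 without PDGF-BB replicate 1 or 2), with the replicate number as a block (0.0687) and with an offset of 1 (0.0636). Cdkn1b, the cyclin-dependent kinase inhibitor p27, fell by 1.36 (SE 0.09, limma adjusted p 0.00246), and E2f1 by 1.15 (SE 0.10, limma adjusted p 0.00441). Ccnd2 (0.31, SE 0.12, limma adjusted p 0.139) and Cdkn1a (-0.05, SE 0.11, limma adjusted p 0.809) did not pass. Skp2 had no probe set of a single symbol and was not analysed here. Icam1, a leukocyte adhesion molecule, rose by 2.18 (SE 0.11, limma adjusted p 0.00133). Lpin1, a phosphatidate phosphatase of lipid synthesis, fell by 2.53 (SE 0.20, limma adjusted p 0.00358), from 268 ± 4.31 to 43.2 and 24.9 on the PDGF-BB arrays, under the yardstick. When 1 array was left out, 6 or 7 of these 33 genes were called, against 11.

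**Figure D4:**
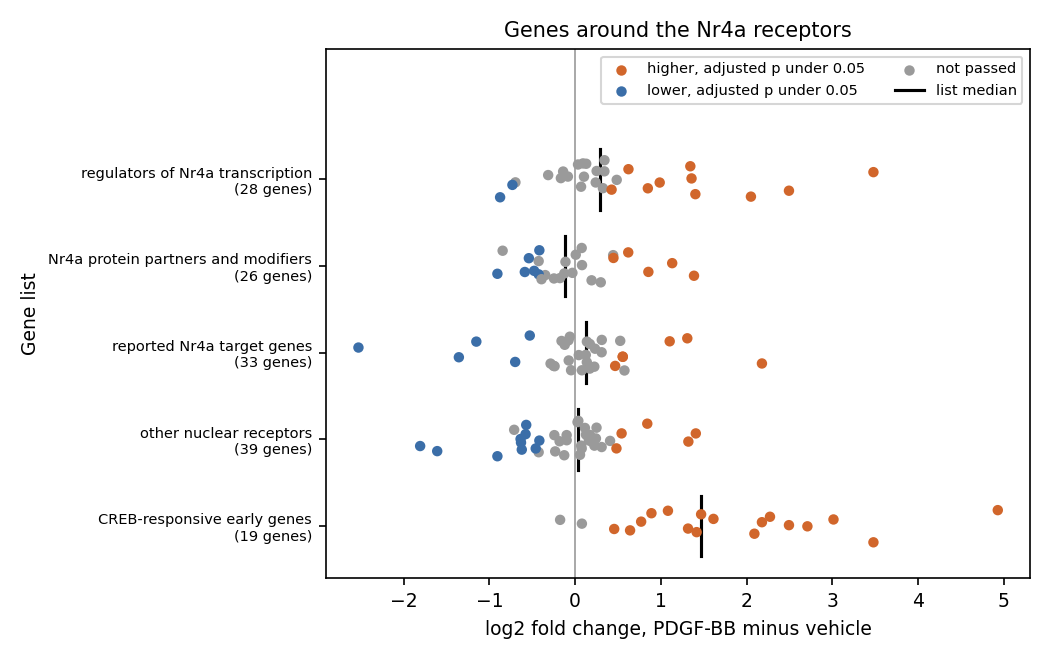
Each point is the log2 change with PDGF-BB (horizontal axis) of a gene in 5 lists (vertical axis, spread at random within a list), orange if higher, blue if lower and grey if not passed, with the list median as a black bar. The CREB-responsive list has its median at 1.47 and no blue point, while the other lists have medians of -0.12 to 0.29 and points on both sides.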

How the data were processed

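RNA from 2 PDGF-BB and 2 vehicle samples was hybridised as biotin-labelled cRNA to Affymetrix arrays, per the labels. What the authors deposited are linear probe set intensities, judging from their range; how they were summarised, background-corrected and scaled is not given in the sources used here. Of 23764 probe sets, 57 controls were left out. The platform annotation of 2016 gave 1 symbol for 17279 of the others, several for 373 and none for 6055; 17223 of the 17279 matched a RefSeq gene with 0 changes of symbol. The probe set with the highest mean log2 value stood for a gene.

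Log2(intensity + 16), which understates the change of dim genes, was fitted by limma 3.58.1 (lmFit, eBayes) under R 4.3.3 (2 residual degrees of freedom; prior 2.40), two-sided, with Benjamini-Hochberg adjustment over 23707 probe sets and a threshold of 0.05. The fit was tested on simulated data. Lists are described by counts and medians, without a set test. Besides the Nr4a probe sets, genes were named as the 4 smallest p-values at most per list or by a fixed set of 11 names. Others were named as the 3 nearest profiles. Il1rl1, Plaur, Per1, Ppargc1a, Areg, Dusp1, Il6, Ccnd2, Cdkn1a and Rxrg were named after their values were seen. Members and lists were chosen with earlier results of these data known. The number of arrays limits the precision.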

Additional observations from a re-analysis of the deposited data

How the results depend on the processing

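Under 12 alternatives (an offset of 1 or 64, 3 other scalings, a filter on dim probe sets, an intensity trend, the replicate number as a block and 4 fits without 1 array), the log2 change ran from 4.92 to 5.38 for Nr4a3, from 2.49 to 2.81 for Nr4a1 and from 1.02 to 1.32 for Nr4a2, called in 12 of 12 each. With 1 array left out, 3 Nr4a probe sets were called in each fit, against 4. The offsets and scalings gave differences in response of 2.43 to 2.57 (Nr4a3 minus Nr4a1), 3.90 to 4.11 (Nr4a3 minus Nr4a2) and 1.45 to 1.54 (Nr4a1 minus Nr4a2). Called genes over the 5 lists numbered 61 with all arrays and 26 to 43 with 1 left out. A fit without an array has a lone array in 1 group, assumed to vary like the other group; 786 to 2683 of all genes were called in these fits, against 3570.

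With the replicate block, Nr4a3 changed by 5.26 (limma adjusted p 9.34e-05), and no Nr4a call changed; Ccnd1 and Esam lost theirs (0.0687 and 0.0604). Replicate numbers are shared by 2 pairs, and deviations of same-numbered arrays correlated at -0.098 over probe sets, so the numbers were not taken to pair samples. Srf turned to -0.11 under quantile scaling, and fits without 1 array gave values from -0.052 to 0.12 for Srf and from -0.062 to 0.25 for Creb1; neither was called, and the cause was not tested. Of 419 values under alternatives of 35 other genes picked by the naming rules, 391 kept direction and side of the threshold. These genes included the smooth muscle marker Lmod1 and none of those named after their values were seen. The median change of all probe sets stayed between -0.04 and 0.06.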
